A study of Mus musculus with 24 samples.

Results

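The interferon regulatory factors (IRFs) are transcription factors that share a DNA-binding domain and recognise repeats of GAAA, the core of the interferon-stimulated response element (ISRE). The genes described here are Irf1, Irf2, Irf3, Irf4, Irf5, Irf7, Irf8 and Irf9, together with Irf2bp2, which is no IRF but a corepressor named for its binding to Irf2. They were taken by symbol from a table of transcript abundances, 9 of 55291 symbols, and all 9 passed the filter on low values that left 13246 symbols for testing.

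The cells were dendritic cells grown from mouse bone marrow for 7 days with GM-CSF at 20 ng/ml. They were either untreated or given lipopolysaccharide (LPS) of E. coli at 10 ng/ml for 6 hours. There were 3 strains, labelled B6, C57 and PWD, with 4 mice each and 1 library per mouse and treatment, which makes 24 libraries in 6 groups. PWD mice descend from wild house mice of another subspecies than the laboratory strains. The labels do not say what sets C57 apart from B6, and they give no age. No group carries a transgene or deletion by its label. The series asks how natural variation in wild-derived mice bears on the response to endotoxin. Values are TPM, transcript abundances per length that add up to a fixed total in each library. TPM keep no record of sequencing depth, so that the depth behind each value is unknown. P-values rest on the spread between the 4 cultures within a group, taken as 1 estimate per gene that all 6 groups share.

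Endotoxin is sensed by Tlr4, which through the adaptor Ticam1 activates Irf3 and through Myd88 activates Irf5. Irf3 starts Ifnb1, the interferon beta gene, and the secreted interferon then acts through the complex ISGF3, which holds Stat2 and Irf9, on genes that include Irf7, a second-wave amplifier of interferon. Irf1 activates and Irf2 mostly represses from overlapping sites, while Irf4 and Irf8 act with partners such as Spi1 and Batf3 in the making and function of dendritic cells.

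The labelled cell type was checked against its markers. Itgax stood at group means of 237.5 to 340.3 TPM, H2-Ab1 at 486 to 1473 TPM and Zbtb46 at 6.26 to 15.3 TPM, while Flt3 was below 1 TPM in every library. Xcr1, the defining receptor of type 1 conventional dendritic cells, the Irf8-dependent lineage, had group means of 0.0178 to 0.138 TPM. Siglech of plasmacytoid dendritic cells had group means of 0 to 0.151 TPM. The cultures also held macrophage markers, 11 of 11 at 1 TPM or more in each group, as GM-CSF cultures commonly do.

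The windows before the start sites of 4 members are printed, those of Irf1, Irf2 and Irf8 because they held a match to a motif searched, and that of Irf7 because this gene had the largest LPS changes. All 9 members have a RefSeq window of 250 bases before the start in build GRCm38.p6 (mm10), and the bases past an annotated start were cut. The windows were searched on both strands for 2 copies of GAAA with 2 bases between them (the ISRE core) or with 1, for the core of the interferon gamma-activated site, TTCNNNGAA (GAS) and for the NF-kB consensus, with capitals marking a match. In all 32851 RefSeq windows these had matches in 2.98%, 2.68%, 7.02% and 7.25%. A match describes letters and is no measured site.
Irf1, chr11:53769764-53770013, plus strand: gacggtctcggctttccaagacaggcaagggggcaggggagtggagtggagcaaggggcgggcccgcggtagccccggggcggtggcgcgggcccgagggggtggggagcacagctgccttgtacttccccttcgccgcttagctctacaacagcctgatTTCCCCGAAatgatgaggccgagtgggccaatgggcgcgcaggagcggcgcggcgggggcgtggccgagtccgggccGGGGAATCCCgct
Irf2, chr8:46739495-46739731, plus strand: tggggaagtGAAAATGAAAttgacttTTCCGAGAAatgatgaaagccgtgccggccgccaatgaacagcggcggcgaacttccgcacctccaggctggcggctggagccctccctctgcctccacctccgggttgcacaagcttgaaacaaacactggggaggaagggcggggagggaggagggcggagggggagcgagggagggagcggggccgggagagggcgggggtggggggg
Irf8, chr8:120736108-120736357, plus strand: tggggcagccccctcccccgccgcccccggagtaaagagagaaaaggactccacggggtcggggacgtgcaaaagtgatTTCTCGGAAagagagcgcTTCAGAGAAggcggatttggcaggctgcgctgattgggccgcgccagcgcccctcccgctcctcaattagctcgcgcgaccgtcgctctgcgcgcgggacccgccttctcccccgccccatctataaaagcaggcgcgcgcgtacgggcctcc
Irf7, chr7:141266500-141266674, minus strand: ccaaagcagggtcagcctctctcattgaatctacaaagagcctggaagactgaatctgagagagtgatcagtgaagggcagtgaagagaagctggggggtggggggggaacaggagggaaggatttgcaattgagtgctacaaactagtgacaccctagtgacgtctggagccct

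Counting from the RefSeq start, the Irf1 window held a GAS match at -90 to -82 and an NF-kB match at -13 to -4. The Irf2 window held an ISRE match at -241 to -232 and a GAS match at -224 to -216, and an NF-kB match at -17 to -8 that reaches into the 13 bases cut. It also overlaps an exon of the noncoding gene Gm16675. The Irf8 window held GAS matches at -171 to -163 and -153 to -145. In the 175 bases kept for Irf7 these letters were not found, which says nothing of sites elsewhere. No match was found in the windows of the other members.

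With LPS, Irf7 and Irf1 rose in all 3 strains, as 6.20% of all genes did, and Irf2bp2 fell in all 3, as 39.3% did. Irf9 rose in C57 and PWD, Irf8 in B6 and Irf2 in C57. Lower values were called for Irf3 in B6 and C57, Irf5 in B6 and PWD and Irf4 in PWD, but with the scaling below only that of Irf5 in PWD was still called lower. Differences are on the log2(TPM + 1) scale and were tested with limma. They were called where p, adjusted by Benjamini-Hochberg across 13246 genes, was under 0.05. In B6 3 members rose and 3 fell, where 71.6% of all genes were called, 11.9% higher and 59.7% lower. In C57 4 rose and 2 fell (62.5% of all genes, 10.4% higher and 52.2% lower), and in PWD 3 rose and 3 fell (63.5%, 11.1% higher and 52.4% lower). LPS and untreated libraries were apart for 6 members in B6 (64.3% of all genes), 5 in C57 (58.5%) and 5 in PWD (53.8%). Regardless of direction, the members' counts of calls and of groups apart are thus close to the background. By direction more of them were called higher and fewer lower than over all genes.

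The direction of small changes depends on the scaling. The median change of all genes was -0.43 in B6, -0.32 in C57 and -0.32 in PWD, and rescaling each library by the median of its ratios to the mean library (median-of-ratios scaling) raised every member's LPS change. Under it the calls over all genes were 4128 higher and 4025 lower in B6 (1575 and 7905 on the deposited TPM), 3291 and 3494 in C57 (1371 and 6908) and 3593 and 3461 in PWD (1464 and 6946). Of the members 7 were then higher and 1 lower in B6 and in C57, and 5 higher and 2 lower in PWD.

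**Figure D1:**
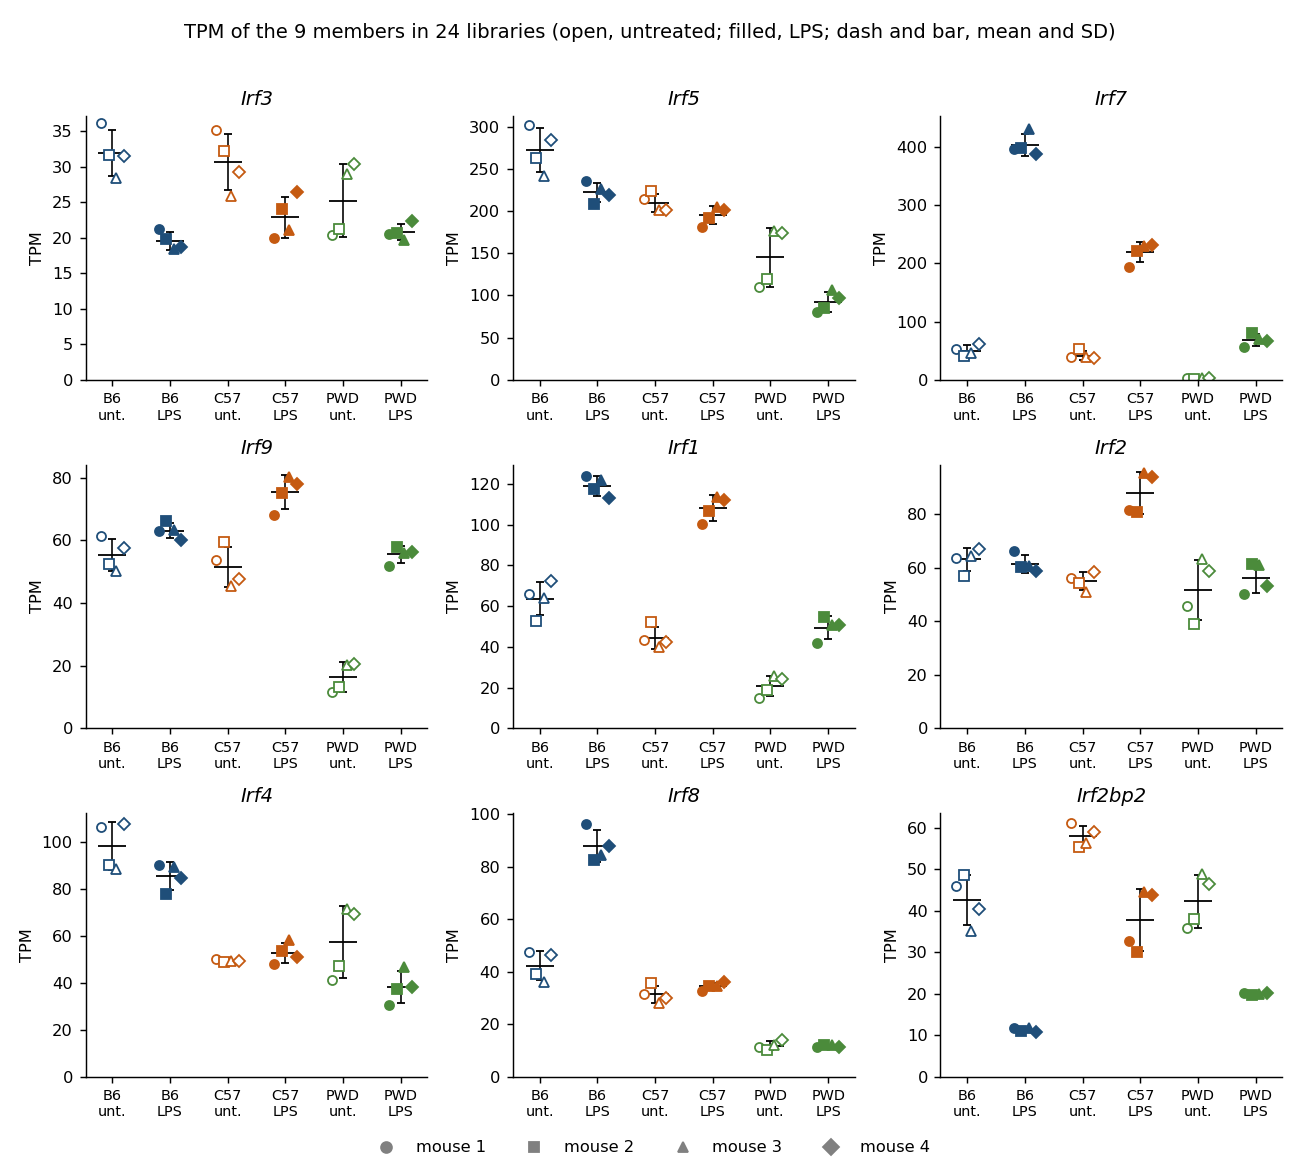
TPM of each member in the 24 libraries, by strain and treatment, with open symbols for untreated and filled for LPS, the symbol shape for the mouse number, and dash and bar for mean and SD of 4. Irf7 rose in each strain from unequal starts (50.2, 41.7 and 2.52 TPM), Irf8 went from 42.4 to 87.8 TPM in B6, and Irf2bp2 fell in each strain.

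Irf7, the inducible amplifier of interferon (ENSMUSG00000025498, chr7:141262706-141266481, minus strand, mm10), showed the largest LPS changes of the 9 members in every strain. In B6 mice 1 to 4 it stood at 52.5, 40.2, 46.2 and 61.7 TPM untreated and at 397, 398, 432 and 388 TPM after LPS. In C57 it stood at 38.9, 52.8, 38.6 and 36.7 TPM untreated and at 195, 222, 230 and 231 TPM after LPS. In PWD it stood at 2.36, 2.29, 2.84 and 2.60 TPM untreated and at 56.1, 80.9, 69.3 and 67.3 TPM after LPS. No untreated library overlapped an LPS library of its strain, and every untreated PWD library lay below every other library of the series for this gene. After LPS, the PWD libraries reached 56.1 TPM or more, in the upper part of the untreated B6 range or above it.

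The log2 change of Irf7 with LPS was 3.0 (SE 0.12, limma adjusted p = 5.16e-17) in B6, 2.38 (adjusted p = 1.43e-14) in C57 and 4.29 (adjusted p = 3.93e-20) in PWD. The ratio of mean TPM was 8.05, 5.26 and 27.1, since the added 1 TPM lowers the fitted change of a gene that starts at 2.52 TPM. The response was larger in PWD than in B6 by 1.29 (SE 0.17, adjusted p = 2.78e-06) and than in C57 by 1.91 (adjusted p = 8.76e-09). It was smaller in C57 than in B6 by -0.62 (adjusted p = 0.0144). That difference was not called after quantile normalization (-0.36, adjusted p = 0.0981), with only mice 1 and 2 (-0.91, adjusted p = 0.0778) or with only mice 3 and 4 (-0.33, adjusted p = 0.22). Against B6, PWD was lower by -3.85 untreated (SE 0.12, adjusted p = 3.6e-20), with a mean TPM 0.0502 times that of B6, and by -2.55 after LPS (adjusted p = 2.83e-16). C57 was lower than B6 by -0.88 after LPS (adjusted p = 8.22e-07).

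Untreated, Irf7 in C57 stood at -0.26 against B6, which was not called (limma adjusted p = 0.0943) and depended on the setting. It was called lower with median-of-ratios scaling (-0.46, adjusted p = 0.00139), quantile normalization (-0.44), structural RNA left out (-0.33, adjusted p = 0.0165) and only mice 3 and 4 (-0.49). It was also called without C57_Untreated 2, the library at 52.8 TPM (-0.37, adjusted p = 0.0164), and without B6_Untreated 2 (-0.36, adjusted p = 0.0267). Against C57, PWD was lower by -3.59 untreated (adjusted p = 1.82e-19) and by -1.68 after LPS (adjusted p = 3.41e-12).

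Irf9, the DNA-binding part of ISGF3 (ENSMUSG00000002325, chr14:55603571-55610030, plus strand), started low in PWD and reached nearly the B6 level after LPS. In B6 it stood at 61.5, 52.6, 50.2 and 57.7 TPM untreated and at 63.0, 66.1, 63.3 and 60.3 TPM after LPS. In C57 the values were 53.7, 59.4, 45.4 and 47.7 TPM untreated and 68.0, 75.1, 80.4 and 78.1 TPM after LPS. In PWD they were 11.7, 13.0, 20.1 and 20.6 TPM untreated and 51.8, 58.0, 56.1 and 56.4 TPM after LPS. The groups overlapped in B6 and did not in C57 and PWD.

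The LPS change of Irf9 was 1.74 in PWD (SE 0.13, limma adjusted p = 8.91e-12) and 0.55 in C57 (adjusted p = 6.28e-04). In B6 it was 0.19 (95% interval -0.08 to 0.45, adjusted p = 0.19), but was called with median-of-ratios scaling (0.74) and quantile normalization (0.31). The response was larger in PWD than in B6 by 1.56 (adjusted p = 3.59e-07) and than in C57 by 1.20 (adjusted p = 3.13e-05). Between PWD and B6 the difference was -1.74 untreated (adjusted p = 3.61e-12) and -0.18 after LPS (95% interval -0.45 to 0.08, adjusted p = 0.206), the latter with no overlap of libraries. That difference was called with median-of-ratios scaling (-0.52, adjusted p = 6.17e-06), quantile normalization (-0.24, adjusted p = 0.0157) and only the groups compared (-0.18, adjusted p = 0.0171). Against C57, PWD was lower by -1.63 untreated (adjusted p = 1.83e-11) and by -0.43 after LPS (adjusted p = 0.0054). Exons of Irf9 overlap those of Rnf31 on the same strand, a gene at a mean of 27.8 TPM, and how reads there were assigned is not given, so the Irf9 level is uncertain to that extent.

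Stat2, which binds Irf9 in ISGF3, was low in untreated PWD as well. It stood at 21.5 TPM in PWD against 102.2 TPM in B6 (-2.20, limma adjusted p = 1.46e-14). With LPS its mean went to 68.1 TPM in PWD and to 178 TPM in B6. After LPS Stat2 was still lower in PWD than in B6 (-1.37, adjusted p = 2.24e-10). Ifnb1, the first interferon of the pathway, was low, at 3.43, 5.34 and 0.618 TPM after LPS in B6, C57 and PWD. It was called higher with LPS in each strain (1.56, 1.91 and 0.64). Its response was smaller in PWD than in B6 by -0.92 (limma adjusted p = 0.0306) and than in C57 by -1.28 (adjusted p = 0.00614). In PWD both means lay below 1 TPM, where the added 1 TPM lowers the fitted change. The untreated means were 0.491, 0.780 and 0.0277 TPM in B6, C57 and PWD. As a ratio of means the LPS rise was thus largest in PWD, so the sign of both differences in response depends on the added 1 TPM.

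Irf3, the constitutive kinase target downstream of Ticam1 (ENSMUSG00000003184, chr7:44997648-45002848, plus strand), had the narrowest range of levels. It stood at 28.4 to 36.2 TPM in untreated B6 and 18.3 to 21.2 TPM after LPS. In C57 it stood at 25.9 to 35.1 and 20.0 to 26.4 TPM, and in PWD at 20.3 to 30.3 and 19.7 to 22.4 TPM. The groups were apart in B6 and overlapped in the other strains. The change of -0.68 in B6 (SE 0.12, limma adjusted p = 1.29e-05) and of -0.40 in C57 (adjusted p = 0.00445) were called on the deposited TPM. Under median-of-ratios scaling these became -0.14 (adjusted p = 0.163) and -0.05 (adjusted p = 0.669), and the C57 change was -0.21 with only mice 3 and 4 (adjusted p = 0.172). In PWD the change was -0.24 (adjusted p = 0.0729), or 0.12 with median-of-ratios scaling. Its response in PWD minus B6 was 0.44 (adjusted p = 0.0585), called once the mouse was a block (adjusted p = 0.0499). It was also called after quantile normalization (0.35, adjusted p = 0.0303), with structural RNA left out (0.52, adjusted p = 0.00231) and with only mice 1 and 2 (0.69). With median-of-ratios scaling it was 0.26 and not called (adjusted p = 0.102). An Irf3 exon overlaps Bcl2l12 on the opposite strand, which had a mean of 4.13 TPM.

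Irf5, which drives inflammatory cytokine genes with NF-kB (ENSMUSG00000029771, chr6:29526625-29541871, plus strand), was the most abundant member in every untreated group. It stood at 241 to 301 TPM in untreated B6, 201 to 223 TPM in C57 and 111 to 177 TPM in PWD. After LPS it stood at 209 to 235 TPM, 181 to 205 TPM and 79.8 to 106 TPM. The groups overlapped in C57, where the change was -0.11 (not called, limma adjusted p = 0.448), and not in B6 or PWD. In PWD it fell by 0.63 (SE 0.12, limma adjusted p = 6.08e-05), and by 0.25 with median-of-ratios scaling (adjusted p = 0.0061). In B6 the change was -0.29 on the deposited TPM (adjusted p = 0.0327) and 0.27 with median-of-ratios scaling (adjusted p = 0.00226), so its sign depended on the scaling. The B6 call was also lost without a single library, B6_Untreated 1 (-0.24, adjusted p = 0.104), B6_Untreated 4, B6_LPS 2 or B6_LPS 4.

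PWD held less Irf5 than B6 in both treatments, by -0.93 untreated (limma adjusted p = 1.78e-07) and by -1.27 after LPS (adjusted p = 4.25e-10), with no overlap of libraries. Against C57, PWD was lower by -0.56 untreated (-0.20 and not called with only mice 3 and 4, adjusted p = 0.0906) and by -1.08 after LPS (adjusted p = 1.39e-08). Its response in PWD minus B6 was -0.34 (adjusted p = 0.148). It was called with median-of-ratios scaling (-0.52, adjusted p = 3.69e-04) and with structural RNA left out (-0.27, adjusted p = 0.0486). It was also called with only mice 3 and 4 (-0.55, adjusted p = 0.00976), without PWD_Untreated 1 (-0.46) and with the mouse as a block (adjusted p = 0.0499). The end of Irf5 overlaps Tnpo3 and that of Irf7 overlaps Phrf1, both on the opposite strand and both at a mean of 28.9 TPM. The library kit keeps the strand, but whether the counting used it is not given.

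Irf1, an activator of antigen presentation and guanylate-binding protein genes (ENSMUSG00000018899, chr11:53770014-53778374, plus strand), rose with LPS in all 3 strains. In B6 it stood at 65.8, 52.5, 63.9 and 72.3 TPM untreated and at 124, 118, 122 and 113 TPM after LPS. In C57 it stood at 43.3, 52.1, 39.7 and 42.6 TPM untreated and at 100.2, 107, 114 and 112 TPM after LPS. In PWD it stood at 14.7, 18.6, 25.7 and 24.3 TPM untreated and at 41.9, 54.9, 50.5 and 50.6 TPM after LPS. LPS and untreated libraries did not overlap in any strain, and PWD after LPS reached no higher than the lower end of untreated B6, which 2 groups overlapped in 1 library of each.

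The LPS change of Irf1 was 0.90 in B6 (SE 0.13, limma adjusted p = 6.72e-07), 1.27 in C57 (adjusted p = 6.08e-09) and 1.24 in PWD (adjusted p = 6.74e-09). No difference between these responses was called. PWD minus B6 was 0.33 (95% interval -0.05 to 0.71, adjusted p = 0.193), C57 minus B6 was 0.37 (-0.01 to 0.75, adjusted p = 0.184) and PWD minus C57 was -0.03 (-0.41 to 0.34, adjusted p = 0.941). The first 2 were called after quantile normalization, at 0.63 and 0.54, and with structural RNA left out of the TPM, at 0.42 and 0.43. PWD was lower than B6 by -1.59 untreated (adjusted p = 2.54e-11) and by -1.26 after LPS (adjusted p = 2e-09). C57 was lower than B6 by -0.51 untreated (adjusted p = 0.00264, but -0.30 and not called with only mice 1 and 2).

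Irf2, the repressor counterpart of Irf1 (ENSMUSG00000031627, chr8:46739732-46847458, plus strand), rose with LPS in C57. In C57 it stood at 56.2, 54.3, 50.9 and 58.6 TPM untreated and at 81.5, 81.0, 95.4 and 94.1 TPM after LPS. In B6 it stood at 57.1 to 67.2 and 58.7 to 66.2 TPM, and in PWD at 39.0 to 63.3 and 50.05 to 61.3 TPM. The C57 groups were apart, while those of B6 and of PWD overlapped. The change was 0.67 in C57 (SE 0.11, limma adjusted p = 1.6e-05), -0.04 in B6 (adjusted p = 0.782) and 0.14 in PWD (adjusted p = 0.274). Under median-of-ratios scaling all 3 were called higher, at 1.03, 0.52 and 0.52.

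The response of Irf2 was larger in C57 than in B6 by 0.70 (SE 0.16, limma adjusted p = 0.00328), or 0.51 with median-of-ratios scaling (adjusted p = 9.95e-04). With only mice 1 and 2 it was 0.48 (adjusted p = 0.11). Between PWD and C57 it differed by -0.52 (adjusted p = 0.0306), a call lost without filter, with only the groups compared, with only mice 1 and 2 (-0.16), and without any of 8 single libraries. After LPS Irf2 was higher in C57 than in B6 by 0.51 (adjusted p = 3.68e-04), but by 0.10 with median-of-ratios scaling (adjusted p = 0.25).

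Within each library the ratio of Irf1 to Irf2, which a common scaling factor leaves as it is, gave the balance of activator to repressor transcripts. The mean log2 ratio of TPM went from 0.00 (SD 0.10, n = 4) to 0.96 (SD 0.04) in B6, from -0.31 (SD 0.18) to 0.30 (SD 0.07) in C57 and from -1.32 (SD 0.23) to -0.19 (SD 0.10) in PWD. Irf1 thus exceeded Irf2 after LPS in every B6 and C57 library and in no PWD library. For Irf7 over Irf3 the log2 ratio went from 0.64 to 4.37 in B6, from 0.44 to 3.27 in C57 and from -3.30 to 1.71 in PWD. These ratios are descriptions with no test.

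**Figure D2:**
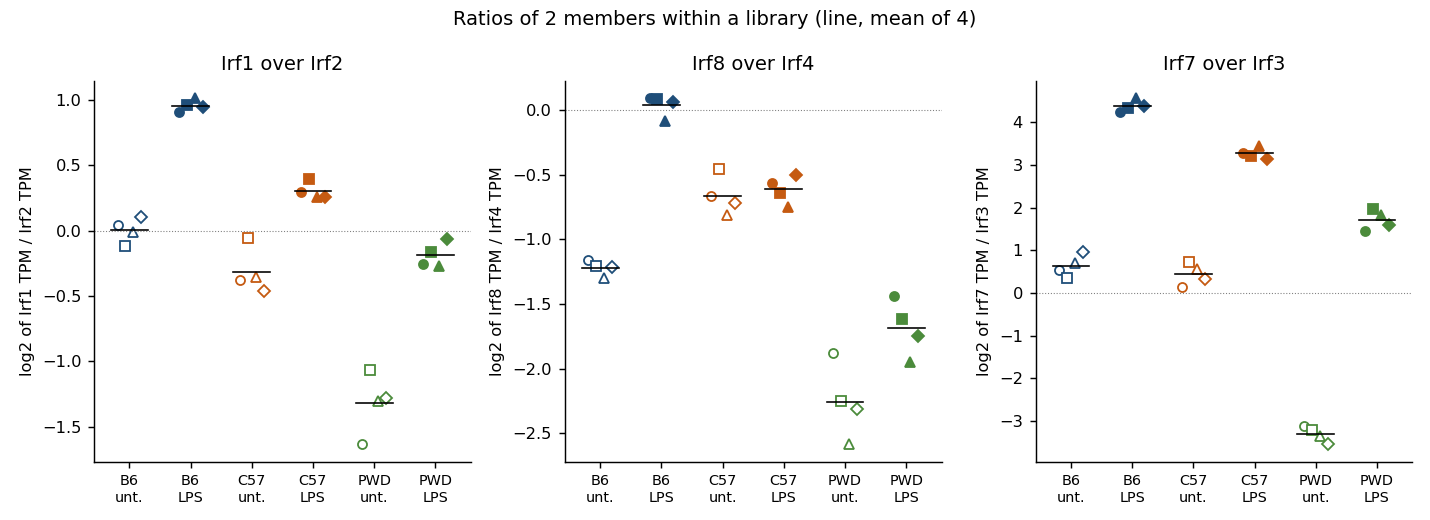
Log2 ratio of the TPM of 2 members within each library, by strain and treatment, with symbols as mice and a line for the mean of 4. Irf1 over Irf2 ended at 0.96 in B6 and at -0.19 in PWD after LPS, and Irf8 over Irf4 reached 0.04 in B6 and -1.69 in PWD.

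Irf8, which sets the type 1 dendritic cell and monocyte fates (ENSMUSG00000041515, chr8:120736358-120756694, plus strand), rose with LPS in B6. In B6 it stood at 47.6, 39.2, 36.1 and 46.5 TPM untreated and at 96.3, 82.5, 84.4 and 88.0 TPM after LPS. In C57 it stood at 31.6, 35.5, 28.3 and 30.0 TPM untreated and at 32.6, 34.4, 34.7 and 36.0 TPM after LPS. In PWD it stood at 11.2, 9.98, 11.9 and 14.0 TPM untreated and at 11.2, 12.2, 12.1 and 11.4 TPM after LPS. All LPS libraries of B6 lay above all other libraries for Irf8, and all PWD libraries lay below all libraries of the other strains.

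The LPS change of Irf8 was 1.04 in B6 (SE 0.10, limma adjusted p = 6.66e-10), 0.13 in C57 (95% interval -0.07 to 0.34, adjusted p = 0.24) and 0.01 in PWD (-0.20 to 0.21, adjusted p = 0.97). With median-of-ratios scaling it was 1.60, 0.49 and 0.36, each called. The response was smaller than in B6 by -0.91 in C57 (SE 0.14, adjusted p = 7.3e-05) and by -1.04 in PWD (adjusted p = 3.46e-06), and by -1.11 and -1.24 with median-of-ratios scaling. PWD was lower than B6 by -1.76 untreated (adjusted p = 1.09e-14) and by -2.80 after LPS (adjusted p = 4.19e-19), the lowest value of any member in the second comparison. C57 was lower than B6 by -0.42 untreated (adjusted p = 0.00143) and by -1.32 after LPS (adjusted p = 2.55e-11).

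Irf4, which supports type 2 dendritic cells and antigen presentation in GM-CSF cultures (ENSMUSG00000021356, chr13:30749226-30766976, plus strand), was highest in B6 in both treatments. It stood at 88.7 to 108 TPM in untreated B6, 48.7 to 50.2 TPM in C57 and 41.3 to 71.6 TPM in PWD. After LPS it stood at 77.9 to 90.5, 48.1 to 58.3 and 30.4 to 46.8 TPM. No B6 library overlapped the other strains in the same treatment. C57 was lower than B6 by -0.97 untreated (SE 0.14, limma adjusted p = 2.63e-06) and -0.69 after LPS (adjusted p = 9.43e-05), and PWD by -0.80 (adjusted p = 1.32e-05) and -1.16 (adjusted p = 2.69e-08).

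With LPS Irf4 changed by -0.55 in PWD (limma adjusted p = 9.95e-04), or -0.17 with median-of-ratios scaling (adjusted p = 0.127), and was not called in B6 (-0.19, adjusted p = 0.2) or C57 (0.09, adjusted p = 0.593). With that scaling both of the latter were called higher, at 0.36 and 0.45. The log2 ratio of Irf8 to Irf4 went from -1.22 (SD 0.06, n = 4) to 0.04 (SD 0.08) in B6. It went from -0.66 (SD 0.15) to -0.61 (SD 0.11) in C57 and from -2.26 (SD 0.29) to -1.69 (SD 0.22) in PWD. In B6 the transcripts of the 2 factors were thus about equal after LPS. Irf4 exceeded Irf8 in every library of PWD and C57, and in every untreated library of B6.

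Irf2bp2 (ENSMUSG00000051495, chr8:126588296-126593986, minus strand) fell in all 3 strains and most in B6. In B6 it stood at 46.0, 48.7, 35.1 and 40.4 TPM untreated and at 11.8, 10.98, 11.7 and 10.7 TPM after LPS. In C57 it stood at 61.0, 55.4, 56.2 and 59.0 TPM untreated and at 32.7, 30.0, 44.6 and 43.8 TPM after LPS. In PWD it stood at 35.8, 38.0, 48.9 and 46.5 TPM untreated and at 20.3, 19.6, 19.8 and 20.2 TPM after LPS. LPS libraries lay below untreated libraries in every strain, and after LPS the 3 strains did not overlap.

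The LPS change of Irf2bp2 was -1.81 in B6 (SE 0.12, limma adjusted p = 5.33e-13), -0.62 in C57 (adjusted p = 6.39e-05) and -1.03 in PWD (adjusted p = 3.44e-08). With median-of-ratios scaling it was -1.28, -0.26 and -0.66, all called. The fall was smaller than in B6 by 1.19 in C57 (SE 0.17, adjusted p = 2.43e-05) and by 0.78 in PWD (adjusted p = 0.00105). After LPS, C57 was higher than B6 by 1.64 (adjusted p = 1.49e-11) and PWD by 0.77 (adjusted p = 2.17e-06). After LPS no member was called above B6 in PWD other than Irf2bp2, and in C57 none other than Irf2bp2 and Irf2. In untreated PWD it stood at -0.01 against B6 (95% interval -0.25 to 0.24, adjusted p = 0.962). It was called lower with only mice 1 and 2 (-0.35, adjusted p = 0.0077) and higher with only mice 3 and 4 (0.33, adjusted p = 0.00905). With median-of-ratios scaling it was -0.16 and called (adjusted p = 0.0352).

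**Figure D3:**
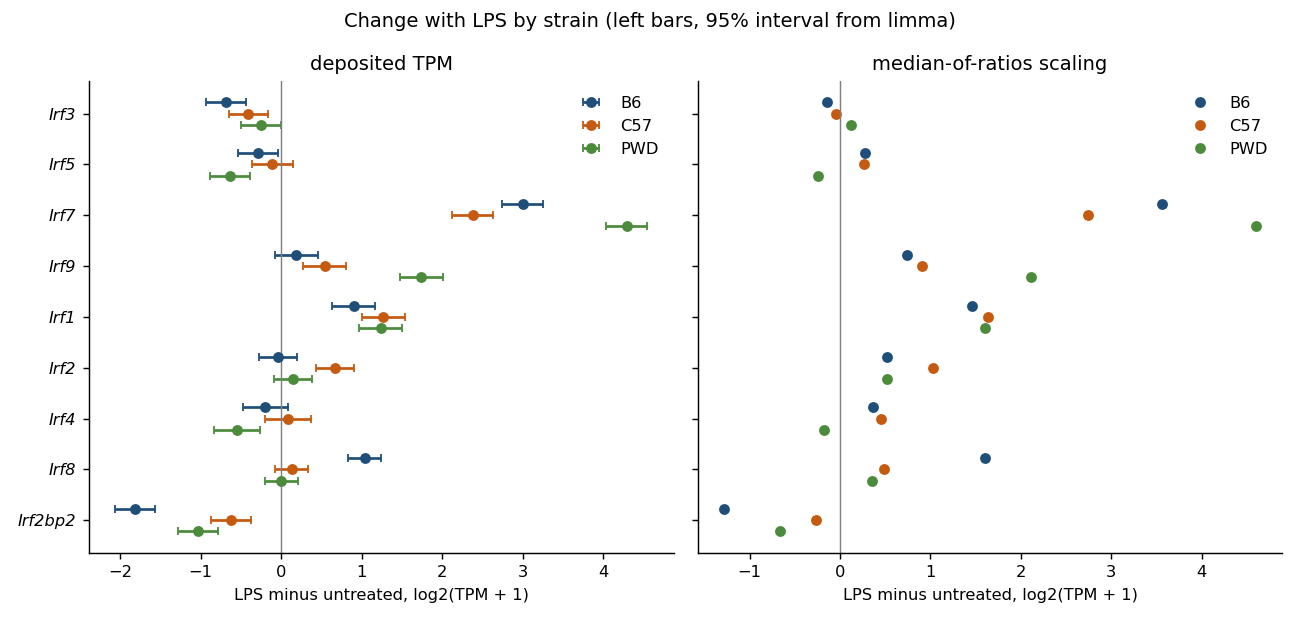
Change of each member with LPS in B6, C57 and PWD on the log2(TPM + 1) scale, on the deposited TPM (left, bars for the 95% interval) and with median-of-ratios scaling (right). Irf7 led in each strain (3.0, 2.38 and 4.29). The sign changed with the scaling for Irf2, Irf4 and Irf5 in B6, Irf5 in C57 and Irf3 in PWD.

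Between strains, members were mostly lower in PWD. Untreated, 8 of 9 were lower than in B6 and none was higher, where 57% of all genes were called, 37.2% higher and 19.7% lower. After LPS 5 were lower and 1 was higher (68.6% of all genes, 49.7% higher and 19.0% lower). Against C57, PWD was lower for 6 members untreated (46.2% of all genes, 26.2% lower) and for 8 after LPS (54.2%, 29.8% lower), with none higher. C57 against B6 had 4 lower and 1 higher untreated (38.8%, 6.92% lower and 31.9% higher) and 3 lower and 2 higher after LPS (58.8%, 9.69% lower and 49.1% higher). Libraries of the strains were apart for 6, 6 and 5 members untreated (PWD against B6, PWD against C57, C57 against B6) and for 7, 8 and 7 after LPS. Over all genes the shares apart were 44.3%, 40.5% and 39.5% untreated and 65.9%, 51.0% and 53.1% after LPS. These comparisons share groups and are not separate evidence.

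Against C57, untreated PWD was also lower in Irf1 (-1.08, limma adjusted p = 5.37e-08), Irf8 (-1.34, adjusted p = 4.88e-12) and Irf2bp2 (-0.46, adjusted p = 0.00221). Irf3 (-0.28, adjusted p = 0.0518), Irf2 (-0.11) and Irf4 (0.17) were not called there. With only mice 1 and 2 Irf3 (-0.67) and Irf2 (-0.38) were called lower, and with only mice 3 and 4 Irf4 was called higher (0.50). With all mice, Irf3 was called lower under median-of-ratios scaling (-0.23), quantile normalization (-0.27) and structural RNA left out (-0.27). Irf4 was called higher under median-of-ratios scaling (0.23) and quantile normalization (0.26). After LPS, PWD was lower than C57 in Irf1 (-1.12), Irf8 (-1.47), Irf2bp2 (-0.87), Irf2 (-0.64) and Irf4 (-0.47), all called, and Irf3 stood at -0.12 (adjusted p = 0.394).

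In untreated C57, Irf2bp2 was higher than in B6 by 0.45 (limma adjusted p = 0.00373). Irf5 was lower by -0.37 (adjusted p = 0.0152), with no overlap of libraries, a call lost without B6_Untreated 1 (-0.32, adjusted p = 0.0504). Irf2 (-0.20), Irf3 (-0.06) and Irf9 (-0.11) were not called, but with median-of-ratios scaling all 3 were, at -0.40, -0.27 and -0.32. After LPS, Irf1 (-0.14, adjusted p = 0.367), Irf3 (0.21), Irf5 (-0.19, adjusted p = 0.178) and Irf9 (0.25, adjusted p = 0.0926) were not called in C57 against B6. Libraries were apart for Irf5 and Irf9 all the same. With structural RNA left out, Irf3 (0.21, adjusted p = 0.0474) and Irf9 (0.24, adjusted p = 0.0245) were called higher. Irf5 was then called lower (-0.20, adjusted p = 0.024). With only mice 3 and 4, Irf3 (0.34) and Irf9 (0.36) were called higher, as was Irf9 with only the groups compared (0.25). Under median-of-ratios scaling Irf1 stood at -0.55 and Irf5 at -0.60, both called, while Irf9 (-0.15) and Irf3 (-0.18) were not called. In PWD against B6 after LPS, Irf2 (-0.13, adjusted p = 0.319) and Irf3 (0.09, adjusted p = 0.507) were not called, and under that scaling Irf2 stood at -0.46 and Irf3 at -0.23.

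The split over all genes also depended on the scaling here. With median-of-ratios scaling it was 4181 higher and 3998 lower for untreated PWD against B6 (4930 and 2614 on the deposited TPM) and 4724 and 4519 after LPS (6580 and 2511). For C57 against B6 it was 2673 and 2591 untreated (4219 and 916) and 3643 and 3933 after LPS (6500 and 1283). The members lay lower still under it, with 9 of 9 lower in untreated PWD than in B6 and 8 of 9 after LPS.

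**Figure D4:**
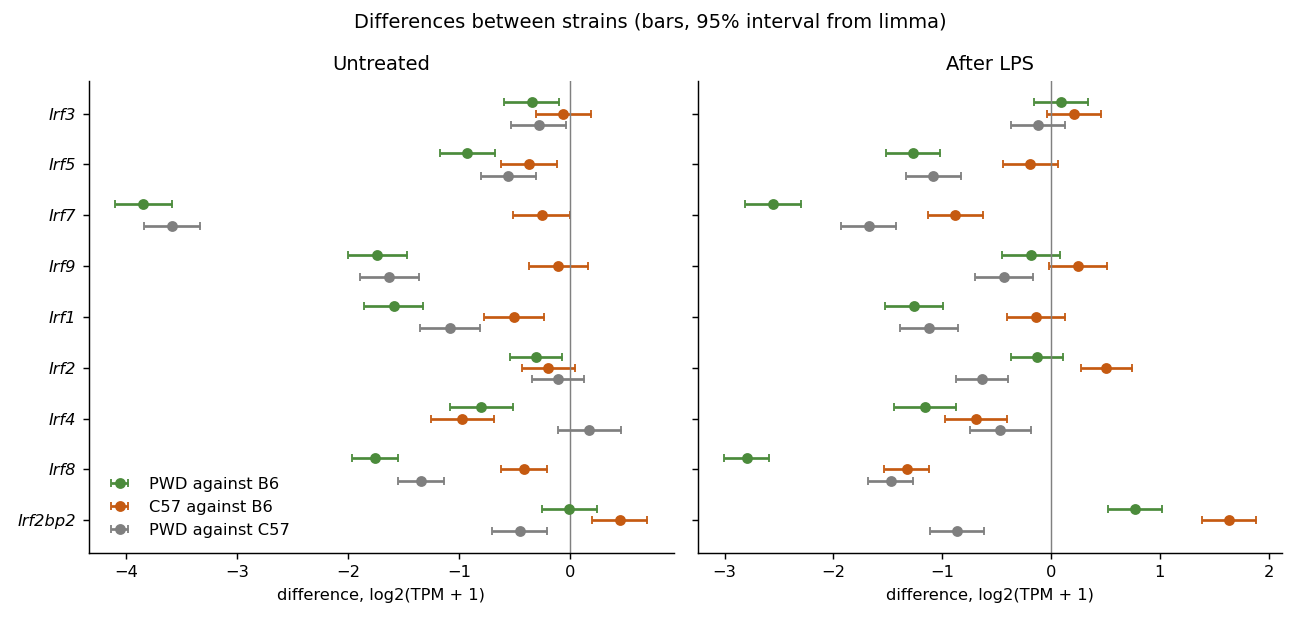
Differences of each member between pairs of strains on the log2(TPM + 1) scale, untreated (left) and after LPS (right), with bars for the 95% interval. Irf7 in untreated PWD (-3.85 against B6) and Irf8 after LPS (-2.80) stand lowest, while Irf2bp2 was higher than B6 after LPS in C57 (1.64) and PWD (0.77).

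The 2 smallest calls of untreated PWD against B6 were fragile. Irf2 (-0.31, limma adjusted p = 0.0214) and Irf3 (-0.35, adjusted p = 0.0143) were not called with only mice 3 and 4 (-0.11 and -0.01), with only the groups compared, or without PWD_Untreated 1 or PWD_Untreated 2. Irf2 was also lost without B6_Untreated 4 and Irf3 without B6_Untreated 1. In untreated PWD, mice 3 and 4 both lay above mice 1 and 2 for all 9 members, as for 74.1% of all genes tested. The median ratio of the members was 1.45 and that of all genes 1.28. With structural RNA left out of the TPM, this held for 7 of 9 members, as for 39.3% of all genes. Structural RNA took 28.8% to 44.2% of TPM over the 24 libraries.

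In bulk RNA, fewer cells of a type and less RNA per cell cannot be told apart, and marker sums differed between the strains. In untreated cells the summed macrophage and monocyte markers (11 of 11 at 1 TPM or more) stood at 1872 to 2418 TPM in B6, 1576 to 1772 TPM in C57 and 815 to 980 TPM in PWD. The mast cell, basophil and eosinophil markers summed to 9.31 to 14.5 TPM in B6 (4 of 8 at 1 TPM or more), 10.4 to 25.3 TPM in C57 (5 of 8) and 97.6 to 199 TPM in PWD (4 of 8). The PWD sum came mostly from the eosinophil genes Prg2 (129.6 TPM against 1.66 in B6) and Epx (26.6 against 0.18), while Kit (0.93 against 5.69) and Gata2 (1.18 against 2.76) were at lower means. The neutrophil markers summed to 1532 to 1773 TPM in B6 (8 of 10), 2301 to 3915 TPM in C57 (10 of 10) and 1715 to 2883 TPM in PWD (8 of 10). Their part in the differences of the members was not tested.

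The dendritic cell markers summed to 10716 to 14179 TPM in untreated B6, 4602 to 5861 TPM in C57 and 4884 to 8297 TPM in PWD, with 12 of 13 at 1 TPM or more in each. The type 1 dendritic cell list summed higher in PWD, at 544 to 719 TPM against 242 to 308 TPM in B6, and most of it was Naaa (589 and 189 TPM). Of its 7 tested genes, 2 were called higher and 4 lower in untreated PWD than in B6. Their median difference was -0.32, against 0.14 over all genes. Of that list Clec9a had group means of 0.0539 to 1.22 TPM and Xcr1 was near 0. Batf3 (10.1 to 28.1 TPM) and Wdfy4 (19.0 to 49.7 TPM) were present in every group. The B cell and plasmacytoid list summed to 98.5 to 131 TPM in untreated B6, 95.1 to 109 TPM in C57 and 32.3 to 42.0 TPM in PWD, mostly from Bst2, itself an interferon-stimulated gene. T and NK cell markers summed to at most 2.47 TPM in any library.

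By level, Irf5 led the untreated cells of every strain, with 37.8%, 36.7% and 38.8% of the summed TPM of the 9 members in B6, C57 and PWD. In untreated B6 Irf4 came next, and from Irf1 (63.6 TPM) through Irf2, Irf9, Irf7, Irf2bp2 and Irf8 to Irf3 (31.9 TPM) each neighbour overlapped the next. In untreated C57 Irf2bp2 (57.9 TPM) followed Irf5, and of the later neighbours only Irf7 and Irf8 did not overlap. In untreated PWD Irf4, Irf2 and Irf2bp2 (57.5, 51.7 and 42.3 TPM) formed an overlapping run below Irf5. Irf3, Irf1, Irf9 and Irf8 (25.2 to 11.8 TPM) formed another, and Irf7 stood apart at the bottom.

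After LPS Irf7 took the top place in B6 and stood first in C57, where it overlapped Irf5. Its share of the summed TPM went from 6.94% to 37.6% in B6, from 7.27% to 26.3% in C57 and from 0.69% to 16.5% in PWD. In PWD Irf5 (92.1 TPM) kept the highest mean, and Irf7, Irf2, Irf9, Irf1 and Irf4 (68.4 to 38.3 TPM) overlapped in turn. The lowest member after LPS was Irf2bp2 in B6 (11.3 TPM), Irf3 in C57 (22.9 TPM) and Irf8 in PWD (11.8 TPM).

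A positive difference in LPS response between strains can be a larger rise or a smaller fall. Irf2bp2, for one, fell less in PWD and C57 than in B6. In PWD minus B6 the difference was called positive for 3 members and negative for 1 (23.5% of all genes, 16.0% and 7.50%). For C57 minus B6 it was 2 and 2 (14.3%, 10.9% and 3.39%), and for PWD minus C57 2 and 3 (11.4%, 5.41% and 5.99%). Of those, Irf4 (-0.64, limma adjusted p = 0.0279) and Irf5 (-0.52, adjusted p = 0.042) complete these calls. The responses not yet given and not called were Irf2 (0.18) and Irf4 (-0.36) for PWD minus B6. For C57 minus B6 they were Irf3 (0.28), Irf4 (0.28), Irf5 (0.18) and Irf9 (0.36). For PWD minus C57 they were Irf3 (0.16), Irf8 (-0.13) and Irf2bp2 (-0.41, adjusted p = 0.12). Some were called under an alternative. Median-of-ratios scaling called Irf4 for PWD minus B6 (-0.54) and Irf2bp2 for PWD minus C57 (-0.40), the latter 0.018 with only mice 1 and 2. Leaving out structural RNA called Irf3 (0.34) and Irf9 (0.42) for C57 minus B6, and quantile normalization called Irf4 (0.41) there. With only mice 1 and 2, Irf3 was called for PWD minus C57 (0.59).

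The genes upstream and downstream were read from lists that were chosen with earlier results known. Of 22 receptors and adaptors that activate Irf3, Irf5 and Irf7, 11 rose and 8 were lower with LPS in B6, 8 and 9 in C57 and 10 and 7 in PWD, with 14, 13 and 15 higher under median-of-ratios scaling. The RNA sensor Ifih1 rose from 51.6 to 288 TPM in B6 (2.47) and from 10.1 to 105 TPM in PWD (3.26). The adaptor Sting1 fell by 0.85 in B6 and by 0.93 in PWD. The receptor Tlr4 did not differ by a call between untreated PWD and B6 (-0.12, limma adjusted p = 0.318), and its co-receptor Cd14 was higher in PWD by 1.18 (adjusted p = 3.6e-11). Of the list 11 were lower and 2 higher in untreated PWD than in B6, with a median of -0.24 against 0.14 over all genes.

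The 16 targets of Irf3 and of ISGF3 all rose with LPS in each strain, by a median of 2.65 in B6, 2.99 in C57 and 3.80 in PWD. In B6 the largest rises were in the chemokine gene Ccl5 (4.44, from 204 to 4415 TPM) and the antiviral gene Rsad2 (3.76), and in PWD in Ccl5 (6.88) and Ifit1 (5.01). All 16 were lower in untreated PWD than in B6, by a median of -3.71, as in Ifit3 (-5.24) and Cxcl10 (-4.86). After LPS 15 were lower and 1, Mx2 (0.67), higher, the last at 0.34 with median-of-ratios scaling. Over all genes 19.7% were lower in PWD untreated and 19.0% after LPS. The response was larger in PWD than in B6 for 10 of 16 and smaller for 1. Over all genes the difference was called positive for 16.0% and negative for 7.50%, where a positive value can also be a smaller fall.

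Of 17 targets of Irf1, in antigen presentation and cell-autonomous defence, all rose in B6 and C57 and 16 in PWD, by medians of 1.57, 1.56 and 1.37. The nitric oxide synthase Nos2 rose by 6.78 in B6 and 3.75 in PWD, and the guanylate-binding protein Gbp5 by 3.24 and 4.88. All 17 were lower in PWD than in B6 in both treatments, by medians of -1.62 and -1.76. Over all genes 19.7% were lower in PWD untreated and 19.0% after LPS. In C57 13 of 17 were lower and 1 higher than in B6 untreated, and 16 of 17 were lower after LPS. Over all genes 6.92% were lower and 31.9% higher in C57 untreated, and 9.69% were lower after LPS.

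All 8 targets of Irf5 with NF-kB rose in each strain, as in Il6 (7.62 in B6, 6.29 in PWD) and Il12b (6.96 and 8.44). Untreated, 4 were higher and 2 lower in PWD than in B6, and after LPS likewise 4 and 2. Over all genes 37.2% were higher and 19.7% lower untreated, and 49.7% and 19.0% after LPS. After LPS Il12b was at 1107 TPM in PWD against 290 TPM in B6 (2.00, limma adjusted p = 1.22e-07) while Il12a was lower by -2.86 (adjusted p = 8.12e-16). Median-of-ratios scaling gave 2 and 2 untreated and 3 and 3 after LPS.

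Of 15 tested targets of Irf4 or Irf8 in myeloid cells 3 rose in each strain, and 6, 6 and 5 were lower in B6, C57 and PWD (3, 3 and 4 with median-of-ratios scaling). Among them the chemokine gene Ccl22 rose by 2.77 in B6 and 3.73 in PWD, and the hydrolase gene Naaa fell by 1.48 and 0.99. In untreated cells 13 were lower and 2 higher in PWD than in B6, and 11 lower and 1 higher in C57. Over all genes 19.7% were lower and 37.2% higher in PWD, and 6.92% and 31.9% in C57. Pdcd1lg2 (-2.80) and Ccl22 (-2.80) stood lowest in PWD, and Naaa (1.63) and the oxidase subunit Cybb (0.93) were the 2 that were higher. In C57, H2-Ab1 was lower than in B6 by -1.60.

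Of 17 negative regulators of the pathway 9 rose and 4 were lower with LPS in B6, 10 and 4 in C57, and 10 and 5 in PWD. With median-of-ratios scaling the counts were 13 and 2, 12 and 1, and 11 and 4. The interferon receptor inhibitor Usp18, which also stands among the ISGF3 targets, rose by 1.93 in B6 and by 4.12 in PWD, from 3.51 to 76.1 TPM. Irf2bpl, a relative of Irf2bp2, was lower after LPS in C57 (-0.52) and PWD (-0.94), and stood at 5.46 TPM in untreated B6. Of 11 tested interferon, receptor and Jak-Stat genes 7, 6 and 8 rose in B6, C57 and PWD (10, 10 and 11 with median-of-ratios scaling). In untreated PWD 7 were lower and 1 higher than in B6 (19.7% and 37.2% of all genes).

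Of 15 DNA-binding partners and coactivators 7 rose and 5 were lower with LPS in B6 and in PWD, and 5 and 5 in C57. With median-of-ratios scaling the counts were 9 and 2 in B6 and in C57, and 9 and 4 in PWD. Batf2, a partner of Irf1 and Irf8, rose in B6 from 8.76 to 36.9 TPM (1.96) and in C57 from 8.27 to 36.5 TPM (2.02). After LPS it stood at 1.21 TPM in PWD, lower than in B6 by -4.10 (limma adjusted p = 7.08e-22). Klf4 fell by 1.79 in B6, 1.68 in C57 and 2.30 in PWD. Batf3, which keeps Irf8 expressed in type 1 dendritic cells, was lower in untreated PWD than in B6 by -1.16 and in untreated C57 by -0.76.

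For each member the 3 genes with the most similar log2(TPM + 1) over the 24 libraries were taken from 7703 genes with a group mean of at least 10 TPM. The 6 groups set most of this likeness, so r is a description. For Irf7 they were Dhx58 (r = 0.995), Ifi47 and Oasl2, for Irf1 Trafd1 (r = 0.991), Tap1 and Adar, and for Irf9 Rtp4 (r = 0.966), Irgm1 and Tnfsf8. For Irf8 they were Serpinb6b (r = 0.98), Hsf2 and Glipr2, and for Irf2bp2 Evi2b (r = 0.992), Srsf6 and Ckap2l. Irf5 was most like Taok3 (r = 0.974), Irf4 like Sinhcaf (r = 0.944), Irf3 like Meaf6 (r = 0.936) and Irf2 like Vcpip1 (r = 0.869), the lowest of the 9 best values.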

How the data were processed

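RNA of bone marrow-derived dendritic cells was made into stranded libraries, per the labels' protocols. The deposited values are TPM. Per the submitters' processing notes, mm10, STAR and edgeR were used, all with no version. The annotation, the counting tool and how the authors computed TPM: not given in the sources used here. The mm10 genome comes from C57BL/6J mice, so strain and the match of reads to the reference cannot be told apart in PWD.

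Rows that share a symbol were summed. Symbols with at least 1 TPM in at least 4 of 24 libraries were kept, and log2(TPM + 1) was fitted with limma 3.58.1 in R 4.3.3 as 6 group means with 18 residual degrees of freedom, trend and robust empirical Bayes. There were 12 two-sided comparisons, Benjamini-Hochberg adjusted over 13246 symbols. The fit was tested on simulated data. All members are named in every comparison; from each list at most 2 rises and 2 falls among the largest with 10 TPM or more in the higher group are named, with Ifnb1, and Stat2 and Tlr4 as pathway genes. A gene that this rule would name is not reported here. The members and lists were chosen with earlier results of these data known.

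Libraries of the same strain and number come from 1 mouse, which the series' design text states. Their deviations from group means correlated with r of 0.0514 to 0.176 in 12 pairs. Alternatives were another pseudocount (0.1 TPM), other filters (none, 5 TPM), median-of-ratios, quantile and structural-RNA-free scaling, plain empirical Bayes, only the groups compared, only mice 1 and 2 or 3 and 4, each library left out, and a block for the mouse. Coordinates are from GENCODE M21 on mm10, and promoter sequences from RefSeq.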

Additional observations from a re-analysis of the deposited data

Results flagged for a closer look

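The LPS response differed between PWD and B6, by limma's interaction term with Benjamini-Hochberg adjustment, for Irf7 (1.29), Irf9 (1.56), Irf2bp2 (0.78) and Irf8 (-1.04), 4 of 9 members where 23.5% of all genes were called (16.0% higher, 7.50% lower). It differed between C57 and B6 for Irf2bp2 (1.19), Irf2 (0.70), Irf7 (-0.62) and Irf8 (-0.91), where 14.3% of all genes were called. It differed between PWD and C57 for Irf7 (1.91), Irf9 (1.20), Irf4 (-0.64), Irf2 (-0.52) and Irf5 (-0.52), where 11.4% were called. The last 3 of these had adjusted p of 0.0279, 0.0306 and 0.042 and were lost in several alternatives, without filter and with only the groups compared among them. With median-of-ratios scaling the calls over all genes were 1980 higher and 2226 lower for PWD minus B6 (2117 and 994 on the deposited TPM) and 1400 and 1979 for C57 minus B6 (1447 and 449). These comparisons share groups.

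Irf7 in C57_Untreated 2 stood apart from the rest of its group, at 52.8 TPM against 36.7 to 38.9 TPM in the other 3 mice, by Dixon's test. It was the 1 value so marked among 54 groups of 4, where chance marks about 1 in 20. Without it, untreated C57 was called lower than B6 in Irf7 (-0.37, limma adjusted p = 0.0164), which it was not with all 4 mice (-0.26, adjusted p = 0.0943).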

How the results depend on the processing

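Of 69 calls of a member, 54 held under every alternative run. TPM have no depth, so counting error could not be assessed, and the smallest called differences rest on 4 cultures a group. The cause of the changes below was not tested.

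Median-of-ratios scaling reversed the LPS change of Irf2 (0.52), Irf4 (0.36) and Irf5 (0.27) in B6, Irf5 in C57 (0.26) and Irf3 in PWD (0.12). It also reversed Irf3 (-0.18) and Irf9 (-0.15) in C57 against B6 after LPS, Irf3 in PWD against B6 after LPS (-0.23) and the response of Irf5 in C57 minus B6 (-0.014). Quantile normalization reversed Irf2 in B6 (0.077) and Irf3 in PWD (0.036) with LPS, Irf3 in C57 (-0.10) and PWD (-0.17) against B6 after LPS, and the response of Irf1 (0.088) and Irf8 (0.012) in PWD minus C57.

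With only mice 1 and 2 the reversed values were Irf2 in B6 (0.066) and Irf8 in C57 (-0.0025) with LPS, Irf4 in untreated PWD against C57 (-0.16), and the response of Irf1 (0.38), Irf2bp2 (0.018) and Irf8 (0.14) in PWD minus C57. With only mice 3 and 4 they were Irf5 in C57 (0.015), Irf2 in PWD (-0.10) and Irf8 in PWD (-0.12) with LPS. They were also Irf2bp2 in untreated PWD against B6 (0.33), Irf2 (0.16) and Irf3 (0.10) in untreated PWD against C57, and the response of Irf3 in PWD minus C57 (-0.27). Leaving out 1 library gave -0.13 to 0.010 for Irf3 in untreated C57 against B6, -0.064 to 0.085 for Irf8 in PWD with LPS and -0.095 to 0.066 for Irf2bp2 in untreated PWD against B6. It gave -0.22 to 0.012 for Irf2 in untreated PWD against C57 and -0.18 to 0.073 for the response of Irf1 in PWD minus C57.

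The members called in C57 against B6 were 9 untreated under median-of-ratios scaling and 9 under quantile normalization (5264 and 5342 of all genes), where the deposited TPM gave 5 (5135), and 8 after LPS without structural RNA (8658), in place of 5 (7783). Without structural RNA the members called were 7 for the response in C57 minus B6 (4393), in place of 4 (1896). For PWD minus B6 they were 7 (5642), in place of 4 (3111). With only mice 1 and 2 they were 2 for C57 minus B6 (725). For PWD minus C57 the deposited TPM gave 5 (1510). There they were 2 with no filter (1545), 2 with only the groups compared (1342) and 3 with only mice 1 and 2 (2378). Leaving out 1 library gave 2 to 5 (1249 to 1621 of all genes). It gave 2 without C57_LPS 3 (1431), PWD_Untreated 3 (1492), PWD_Untreated 4 (1442) or PWD_LPS 1 (1324). It gave 3 without C57_Untreated 3 (1258), C57_LPS 4 (1332) or PWD_LPS 4 (1275).

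Over all genes, calls of the response in C57 minus B6 were 3379 with median-of-ratios scaling, 4393 without structural RNA and 725 with only mice 1 and 2 (1896). Those of PWD minus B6 were 5642 without structural RNA (3111). Those of PWD minus C57 were 2861 with median-of-ratios scaling, 2966 with quantile normalization, 2730 without structural RNA and 2378 with only mice 1 and 2 (1510). With only mice 1 and 2, untreated C57 against B6 gave 3393 (5135) and LPS in PWD 5600 (8410).

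With the mouse as a replicate block, Irf3 (0.44) and Irf5 (-0.34) were also called for the response in PWD minus B6, which made 6 members in place of 4. Without the block 3111 of all genes were called there, and the count with it is not given here. No other call of a member changed with the block.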
